A study of Mus musculus with 6 samples.

Results

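The BCL2 family genes of a 770-gene NanoString panel were compared in whole brain of wild-type (WT) and SOD1-G85R transgenic mice. All 10 listed family members were on the panel and were found by gene symbol: Bcl2, Bcl2l1 and Bcl2a1a as pro-survival genes, and Bax, Bak1, Bok, Bad, Bid, Bik and Bcl2l11 as pro-death genes. Each genotype had 3 samples, named replicates 1, 2 and 3 as in the labels. Both groups were of C57BL/6 background and labelled day 10, and the transgenic mice carried SOD1-G85R, an enzyme variant (of superoxide dismutase 1) that causes familial amyotrophic lateral sclerosis. The labels give no promoter, line or copy number for the transgene, leave open what day 10 is counted from, and do not state that replicates came from different animals. A p-value therefore covers the spread among these samples, which may be technical. The transgene was not analysed here, and the labels for genotype could not be checked against it.

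BCL2 family proteins set the threshold at which a cell dies through its mitochondria. The effectors Bax and Bak1 open pores in the outer mitochondrial membrane, which releases cytochrome c and activates caspases. Pro-survival members hold effectors and BH3-only proteins in check, and BH3-only proteins sense stress and release or activate the effectors. In developing brain this pathway removes surplus neurons, and Bcl2l1 and Bax act there in opposite directions. These steps run largely through binding between proteins, which a transcript count does not measure.

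The family's transcripts overlapped between the 2 genotypes in all tested members but 1. Bcl2a1a, a pro-survival gene known mainly from white blood cells, was higher in all 3 SOD1-G85R samples than in any WT sample, and very high in 1 of them. No member passed the test over all genes. A value is called a normalized count, which is a count of colour-coded probes scaled by the authors. Log2 fold changes are SOD1-G85R minus WT on the log2(value + 1) scale with their standard errors, from limma across 712 genes, those that exceeded 20 in 3 or more samples. Bik missed that filter, and 9 members were tested.

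Bcl2a1a lies on chromosome 9 at 88956920-88962416 (GRCm38.p6). Its close copies Bcl2a1d, at 88723288-88731850, and Bcl2a1b, at 89199273-89207838, lie on the same chromosome and are not listed on the panel. Bcl2a1c, at 114330135-114330578 on chromosome 9, is not listed on the panel either, and its start region was not compared here. The sources used here do not say whether the panel's probe tells these genes apart, so its signal may come from any of them. The 250 bases before each start, from RefSeq (GRCm38.p6), are shown for the 1 member that separated the groups and for Bcl2a1b and Bcl2a1d. Bcl2, the gene that named the family, is added for contrast. Capitals mark GAGGAAGT, the core bound by the myeloid factor PU.1, in the Bcl2a1 copies, and GGGCGG, the GC box, in Bcl2. Each Bcl2a1 region shown also holds 1 GC box, which is left in lower case. It lies 39 bases before the start in Bcl2a1a and Bcl2a1d, and 83 in Bcl2a1b. Both strands were searched, and the 2 motifs did not overlap in these 4 regions.
Bcl2a1a, chr9:88956670-88956919, plus strand: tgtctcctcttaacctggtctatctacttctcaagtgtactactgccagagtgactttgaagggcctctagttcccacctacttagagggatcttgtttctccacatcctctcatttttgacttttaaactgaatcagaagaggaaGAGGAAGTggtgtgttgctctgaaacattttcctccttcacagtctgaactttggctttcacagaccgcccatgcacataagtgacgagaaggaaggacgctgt
Bcl2a1b, chr9:89199023-89199272, plus strand: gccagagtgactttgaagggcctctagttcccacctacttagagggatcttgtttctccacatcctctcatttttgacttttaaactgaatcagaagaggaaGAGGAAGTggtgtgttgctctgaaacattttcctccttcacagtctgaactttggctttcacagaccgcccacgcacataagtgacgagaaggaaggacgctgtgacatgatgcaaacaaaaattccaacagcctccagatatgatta
Bcl2a1d, chr9:88731851-88732100, minus strand: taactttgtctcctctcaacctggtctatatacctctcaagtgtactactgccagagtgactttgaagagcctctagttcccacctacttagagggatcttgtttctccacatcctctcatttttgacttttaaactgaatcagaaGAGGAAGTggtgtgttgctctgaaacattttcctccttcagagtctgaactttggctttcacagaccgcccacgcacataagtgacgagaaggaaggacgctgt
Bcl2, chr1:106714291-106714540, minus strand: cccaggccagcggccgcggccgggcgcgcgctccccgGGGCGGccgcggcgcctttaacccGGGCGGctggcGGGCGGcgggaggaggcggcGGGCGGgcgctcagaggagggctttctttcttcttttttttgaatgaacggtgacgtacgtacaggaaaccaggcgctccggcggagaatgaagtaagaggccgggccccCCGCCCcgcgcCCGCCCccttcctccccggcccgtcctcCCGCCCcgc

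Aligned to Bcl2a1a, the Bcl2a1b region matched in 205 of 206 aligned bases and the Bcl2a1d region in 238 of 244. GC content was 45.2% before Bcl2a1a and 74.8% before Bcl2. GAGGAAGT was found in 2.44% of 32851 regions of the same length and in those of 3 members, Bcl2a1a, Bak1 and Bad. The GC box was found in 32.7% of regions, in 8 of the 13 that belong to members, and 7 times before Bcl2. The 8 include the region of Bcl2a1a. A match is a description of the letters and not a measured site. No region was given for Bik.

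SOD1-G85R replicate 2 stood apart from the rest of the series. Its log2 values correlated across genes at 0.828 to 0.841 with the other samples, which correlated with each other at 0.961 to 0.986. The median of its tested genes was 395 normalized counts, against 203 to 255 in the other samples, and 327 of 712 genes, or 45.9%, were higher in it than in the other 5 samples. Of the 9 tested members, 6 were highest in it: Bcl2l1, Bcl2a1a, Bax, Bak1, Bid and Bcl2l11. After each value was divided by its sample's median, 2 members were highest in it, Bcl2a1a and Bak1, against 21.1% of all tested genes. Bcl2, Bax, Bok and Bad were then lowest in it, and the share of all tested genes lowest there was not computed. The members' log2 fold changes are therefore also given without this sample. As a check of the tissue, the 5 measured neuron markers summed to at least 16261 normalized counts in every sample, and the 3 astrocyte markers to at least 9634. The 7 oligodendrocyte markers summed to 51409 to 68110 in WT against 26740 to 35905 in SOD1-G85R, and 6 of the 7 were lower in SOD1-G85R replicates 1 and 3 than in any WT sample. Their part in the results was not tested.

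**Figure D1:**
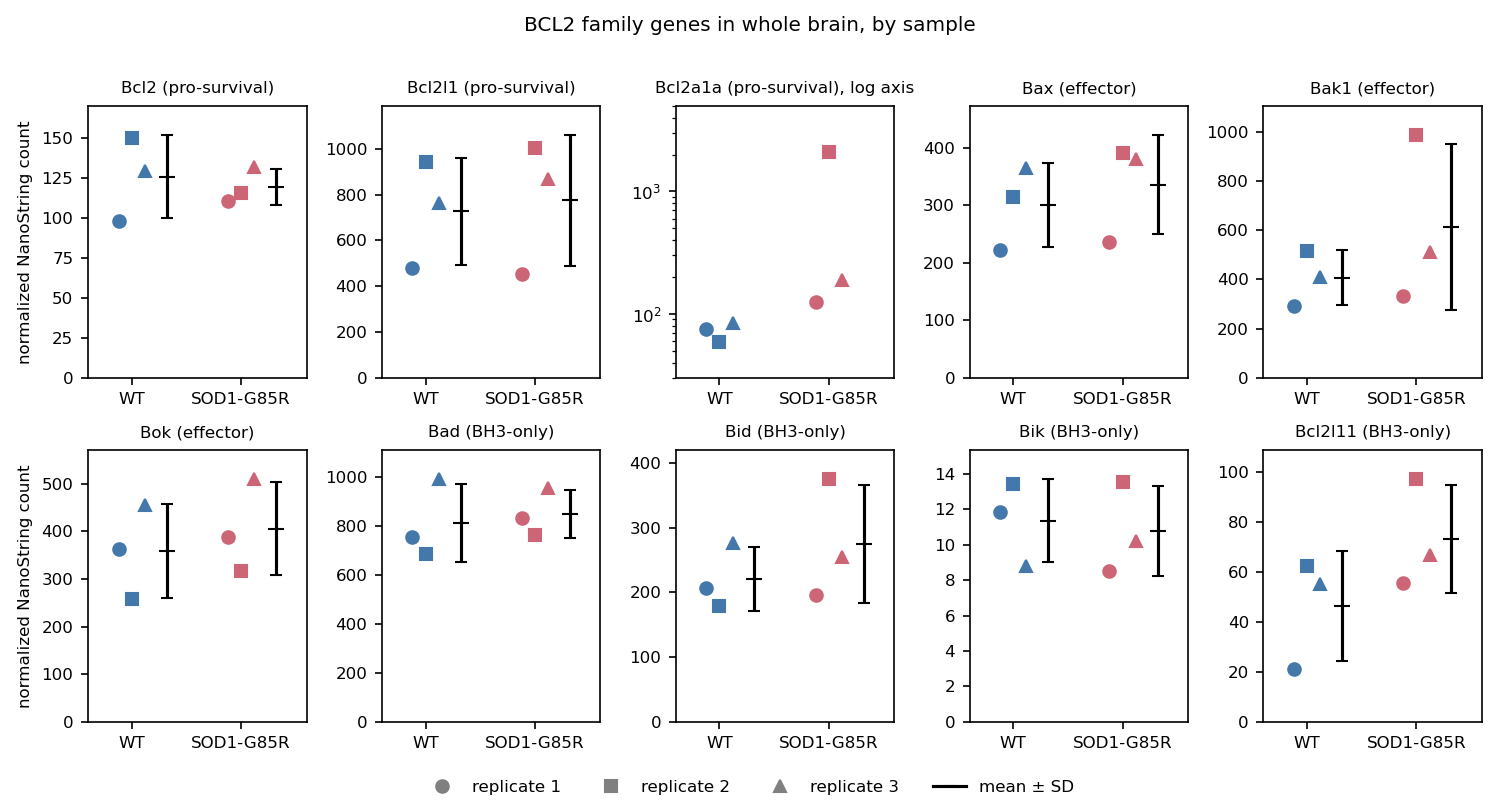
Normalized NanoString counts (vertical axes, each starting at 0 except the log axis of Bcl2a1a) of the 10 BCL2 family genes in WT (blue) and SOD1-G85R (red) samples. Symbols are the 3 replicates of each genotype and black marks are the mean ± SD, left out for Bcl2a1a. In Bcl2a1a the SOD1-G85R samples all lie above the WT samples, and in the other 9 panels the groups overlap.

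Among the pro-survival genes, Bcl2 protects neurons and lymphocytes from mitochondrial death. It was at 98.1, 149.8 and 129 normalized counts in the WT samples, in the order of the replicates, and at 111, 115 and 132 in the SOD1-G85R samples. The groups overlapped throughout, and the SOD1-G85R samples lay within the WT range. The log2 fold change was -0.06 (SE 0.23), with a 95% interval from -0.60 to 0.49, and the adjusted p by limma was 0.909. Without SOD1-G85R replicate 2 it was -0.03.

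Bcl2l1 encodes BCL-XL, the main pro-survival member of mature neurons. It was at 479, 941 and 761 normalized counts in WT and at 454, 1002 and 866 in SOD1-G85R, in the order of the replicates. Replicate 1 was low in both genotypes, and the spread within each group, 727 ± 233 and 774 ± 286 (SD, n = 3 each), was far wider than the difference between them. Its log2 fold change was 0.07 (SE 0.40), with a 95% interval from -0.90 to 1.03 (limma, adjusted p = 0.945), and it was -0.16 with SOD1-G85R replicate 2 left out.

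Bcl2a1a encodes A1, a pro-survival protein of neutrophils, macrophages and activated lymphocytes. It was at 75.2, 58.3 and 83.9 normalized counts in WT replicates 1, 2 and 3. The SOD1-G85R samples, in the same order, were at 125, 2088 and 187. The groups did not overlap, in the direction found for 121 of 712 tested genes, or 17.0%, so that 1 member of 9 is no more than the panel gave. SOD1-G85R replicate 2 was at 28.8 times the WT mean of 72.5 ± 13.0 (SD, n = 3) and at 13.4 times the mean of the other SOD1-G85R samples.

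The log2 fold change of Bcl2a1a was 2.34 (SE 1.03) with a 95% interval from -0.17 to 4.84, and it did not pass limma over all genes (adjusted p = 0.343, or 0.0883 to 0.638 with 1 sample left out). Without SOD1-G85R replicate 2 it was 1.08 (SE 0.28, adjusted p = 0.0883), when limma called 10 of 712 genes, or 1.40%, at an adjusted p of 0.05. With that sample left out and the others centred on their medians, a setting chosen after the data were seen, it was 1.15 (SE 0.25, adjusted p = 0.0189), when 80 genes, or 11.2%, were called. The exact 95% Poisson intervals, for counting error only, of the SOD1-G85R samples lay above those of the WT samples, which overlapped each other. In the nearest pair the interval ran from 103 to 149 normalized counts in SOD1-G85R replicate 1 and from 68.6 to 102 in WT replicate 3. Before scaling the implied counts of this pair were 117 and 105. The gap thus rested in part on the scaling, whose error the intervals leave out.

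Genes of the white blood cells that use Bcl2a1a were set beside it. The summed level of 8 microglia and macrophage markers was 2995, 2524 and 3377 normalized counts in WT against 1952, 5836 and 2454 in SOD1-G85R. It was thus highest in SOD1-G85R replicate 2, where 7 of the 8 exceeded all other samples. The remaining marker, P2ry12, was lowest there, at 302 against 476 to 1081 in the other samples. The sum was below every WT sample in replicates 1 and 3, where Bcl2a1a was above every WT sample. In both of these replicates 3 of the 8 markers were below all WT samples. Ptprc, the pan-leukocyte antigen CD45, was at 66.5, 54.3 and 47.9 in WT against 50.1, 752 and 38.4 in SOD1-G85R, so apart from replicate 2 the transgenic samples lay within or below the WT range. In bulk tissue fewer cells of a type and less RNA per cell cannot be told apart.

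The 5 measured granulocyte and monocyte markers summed to 81.0, 101 and 109 normalized counts in WT and to 153, 466 and 263 in SOD1-G85R. Of the 5, 4 separated the groups. Only 2 of the 5, Csf3r and Ccr2, were highest in SOD1-G85R replicate 2. Ly6g, Trem1 and Siglecf were highest in SOD1-G85R replicate 3. The 9 measured T and NK cell markers summed to 82.7 to 121 in WT and to 127, 954 and 224 in SOD1-G85R, and 5 of the 9 separated the groups. These levels were low, with Cd3e, Cd8a and Prf1 at the floor in all 3 WT samples. Cd3d, Nkg7, Gzma, Gzmb, Ly6g and Trem1 were at the floor in 2 of them. All 9 T and NK cell markers were at the floor of 13.4 in WT replicate 2. The WT sums of that list therefore largely give the floors of the samples. The 6 measured interferon response genes summed to 279 to 337 in WT against 279, 15219 and 389 in SOD1-G85R. All 6 were highest in replicate 2, and 3 of the 6 separated the groups. Cxcl10 and Zbp1 were at the floor in 2 WT samples. Zbp1 separated by 14.9 in SOD1-G85R replicate 1 against the floor of 13.4 in WT replicate 2. Nkg7 separated by 13.85 in SOD1-G85R replicate 1, and Ly6g by 14.33 in replicate 2, against that same floor. Over the 712 tested genes, 17.0% were higher in SOD1-G85R without overlap. This is no like base for the lists. Cd3e, Cd3g, Cd8a, Nkg7, Ly6g and Zbp1 separated the groups but missed the filter and are not among the tested genes. Cd3d, Trem1, Siglecf and Cxcl10 passed it through SOD1-G85R samples alone. No excess over the panel is therefore read from the lists. The part of these cells and of the interferon response in the Bcl2a1a values was not tested.

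**Figure D2:**
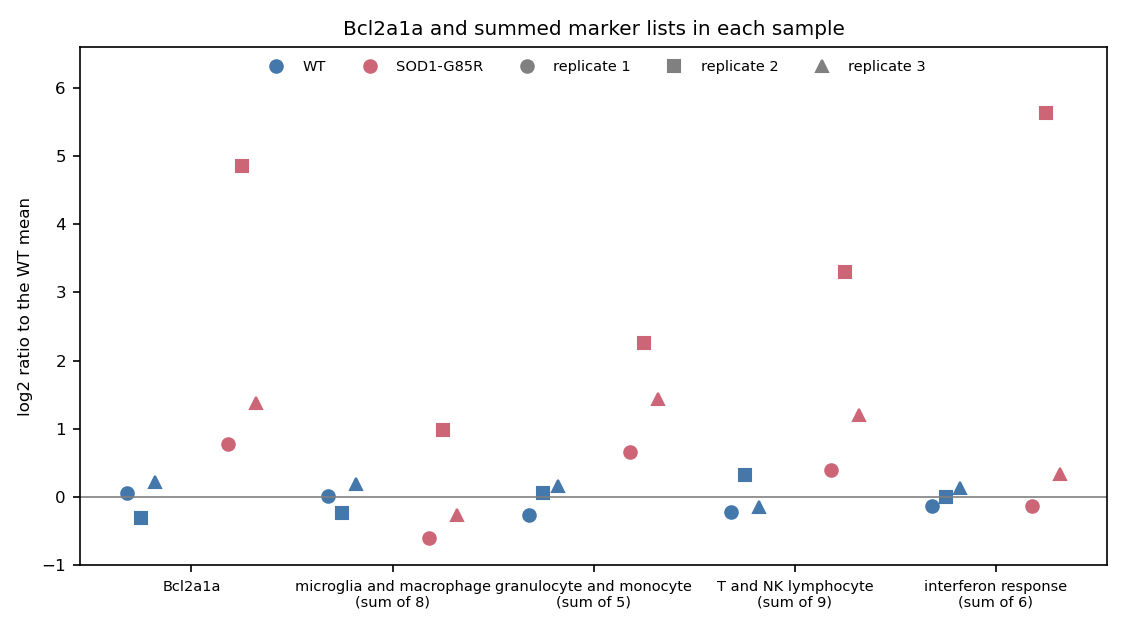
Log2 ratio to the WT mean (vertical axis) of Bcl2a1a and of the summed normalized counts of 4 marker lists, for each WT (blue) and SOD1-G85R (red) replicate. SOD1-G85R replicate 2 is the highest point in every column, and SOD1-G85R replicates 1 and 3 lie above WT for Bcl2a1a and below WT for microglia and macrophage markers.

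Of the effectors, Bax, the pore protein needed for death of many developing neurons, was at 221, 314 and 365 normalized counts in WT and at 237, 390 and 381 in SOD1-G85R. Replicate 1 was lowest in both genotypes and the groups overlapped. The log2 fold change was 0.16 (SE 0.30) with a 95% interval from -0.58 to 0.89 (limma, adjusted p = 0.820), and it was 0.03 without SOD1-G85R replicate 2.

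Bak1, the effector that works alongside Bax, was at 293, 517 and 409 normalized counts in WT and at 335, 988 and 513 in SOD1-G85R. Replicate 2 of SOD1-G85R was high, at 2.43 times the WT mean, while the other SOD1-G85R samples lay within the WT range. Its log2 fold change was 0.48 (SE 0.44) with a 95% interval from -0.59 to 1.55 (limma, adjusted p = 0.619). Without that sample it was 0.06.

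Bok, an effector-like member that can act without Bax and Bak1, had another order. It was at 362, 258 and 456 normalized counts in WT and at 389, 317 and 510 in SOD1-G85R, lowest in replicate 2 and highest in replicate 3 of both genotypes. The log2 fold change was 0.19 (SE 0.30) with a 95% interval from -0.53 to 0.90 (limma, adjusted p = 0.800). Leaving out SOD1-G85R replicate 2 gave 0.35.

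Of the BH3-only genes, Bad, which is switched off by growth factor signalling, was at 756, 688 and 992 normalized counts in WT and at 834, 763 and 956 in SOD1-G85R. All 3 SOD1-G85R values lay within the WT range, and the log2 fold change was 0.08 (SE 0.22) with a 95% interval from -0.46 to 0.61 (limma, adjusted p = 0.873), or 0.15 without SOD1-G85R replicate 2. Bid, which links death receptors to mitochondria once caspase 8 cuts it, was at 207, 179 and 276 in WT and at 196, 375 and 254 in SOD1-G85R. Only replicate 2 of SOD1-G85R exceeded the WT range, and the log2 fold change of 0.29 (SE 0.31, adjusted p = 0.661 by limma) was 0.04 without it.

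Bcl2l11 encodes BIM, which is induced when neurons lose trophic support. It was at 21.4, 62.4 and 55.1 normalized counts in WT and at 55.4, 97.1 and 66.8 in SOD1-G85R. The SOD1-G85R samples all exceeded WT replicates 1 and 3, but replicate 1 of SOD1-G85R was below WT replicate 2, so the groups overlapped. Its log2 fold change was 0.75 (SE 0.45) with a 95% interval from -0.36 to 1.85 (limma, adjusted p = 0.470). It rested largely on the low WT replicate 1, without which it was 0.27. It was 0.52 without SOD1-G85R replicate 2 and 0.03 after quantile normalization.

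Bik, a BH3-only protein of the endoplasmic reticulum, was at 11.9, 13.4 and 8.79 normalized counts in WT and at 8.52, 13.5 and 10.2 in SOD1-G85R. The values of WT replicate 2 and SOD1-G85R replicate 3 were at the floor, which the authors appear to have set as the lowest value of each sample and which gives only an upper limit. No sample reached 20, and no difference was detectable at this depth.

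Over the tested members, 8 of 9 log2 fold changes were positive as deposited, and 0 passed limma at an adjusted p of 0.05, as did 0 of 712 genes over the panel (0%). At an unadjusted p of 0.05 there were 0 members, against 116 genes or 16.3% of the panel. The median log2 fold change of all tested genes was 0.15 as deposited, and 6 members lay above it. With samples centred on their medians 4 of 9 were positive, Bcl2a1a, Bak1, Bid and Bcl2l11, while Bcl2l1, Bax, Bok and Bad turned negative with that scaling. Centred on 13 housekeeping genes instead, 8 of 9 stayed positive, with Bcl2l1 at 0.057, Bax at 0.15, Bok at 0.18 and Bad at 0.070. The intervals above are wide: for Bcl2l1 or Bak1 they hold changes of nearly 1 on the log2 scale or more.

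**Figure D3:**
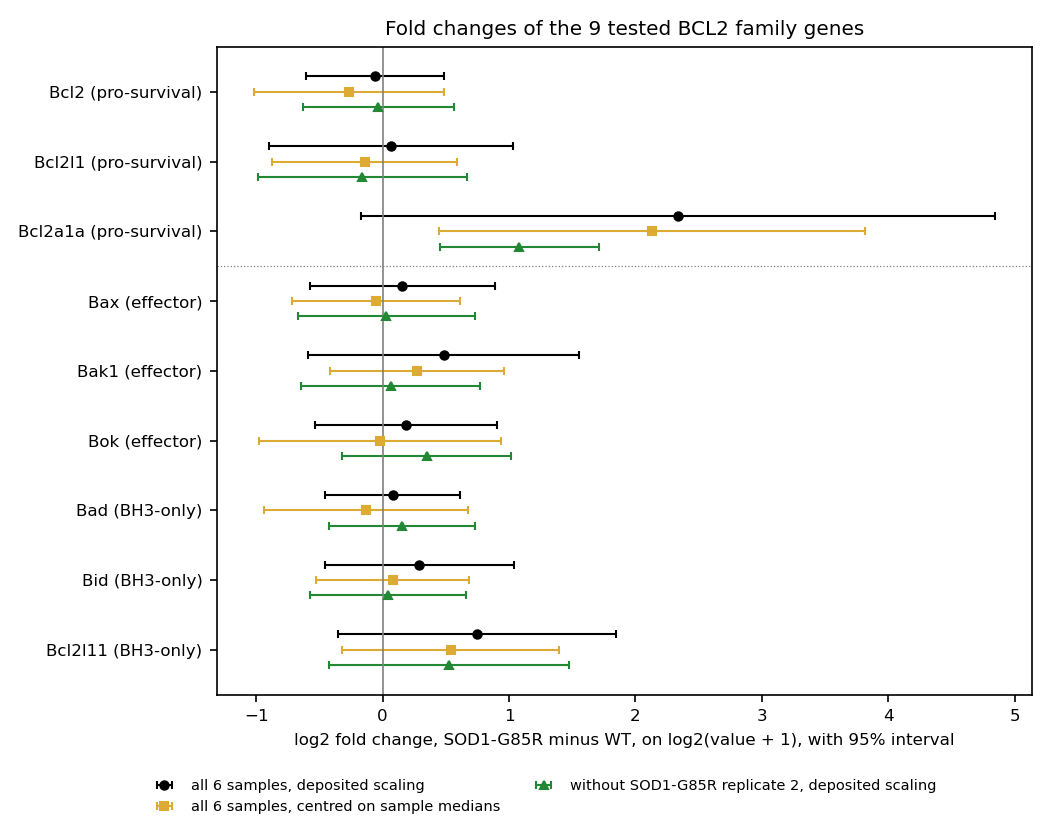
Log2 fold change, SOD1-G85R minus WT, on the log2(value + 1) scale (horizontal axis) of the 9 tested members with limma's 95% interval, for all 6 samples as deposited, for all 6 centred on sample medians, and without SOD1-G85R replicate 2. The intervals of Bcl2a1a lie above 0 in the last 2 settings, and those of the other 8 genes include 0 in all 3.

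The pro-survival and pro-death classes were compared within each sample, where a scaling factor cancels. The median log2 fold change was 0.07 for the 3 pro-survival genes and 0.24 for the 6 tested pro-death genes, so the pro-death median was higher by 0.17. The pro-death minus pro-survival median, relative to the WT mean, was 0.09, -0.34 and 0.21 in the WT samples, in replicate order, against 0.12, 0.08 and 0.07 in the SOD1-G85R samples. The SOD1-G85R values all fell inside the WT range, and both classes were high together in SOD1-G85R replicates 2 and 3. The difference was 0.44 without WT replicate 1 and -0.10 without WT replicate 2, and 0.04 after quantile normalization. With Bcl2a1a left out it was 0.23, and the values by sample were 0.19, -0.41 and 0.24 in WT against 0.35, 0.39 and 0.17 in SOD1-G85R, so 2 of the 3 SOD1-G85R values then lay above the WT range. Adding Bcl2l2 and Bbc3 to the classes gave 0.28.

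**Figure D4:**
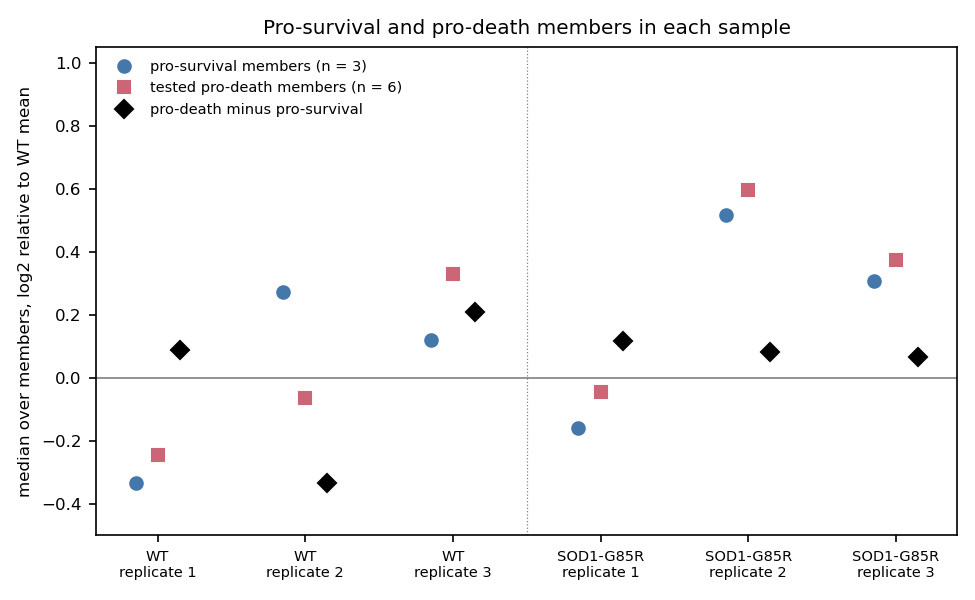
Median over the 3 pro-survival and the 6 tested pro-death members in each sample, as log2 relative to the WT mean (vertical axis), and the difference of the 2 medians. The differences of the SOD1-G85R samples, 0.07 to 0.12, lie within the range of the WT samples, -0.34 to 0.21.

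Pairs of opposing members gave the same kind of comparison, and they were picked with the values in view, so no test is given. Bax over Bcl2, on the log2 scale relative to the WT mean, was -0.07, -0.18 and 0.25 in WT against -0.15, 0.51 and 0.28 in SOD1-G85R. Bak1 over Bcl2l1 was 0.12, -0.04 and -0.07 in WT against 0.38, 0.80 and 0.07 in SOD1-G85R. Both pairs overlapped between the groups. Bcl2l11 over Bcl2 was -0.61, 0.29 and 0.32 in WT against 0.55, 1.29 and 0.56 in SOD1-G85R, so the groups did not overlap for this pair. Each of its genes overlapped between the groups when taken alone. The share of gene pairs that separate was not computed, so no result is drawn from this pair.

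Low values in replicate 1 recurred among the members. Bcl2, Bcl2l1, Bax, Bak1 and Bcl2l11, or 5 of 9, were lowest in replicate 1 of both genotypes, and so were 312 of 712 tested genes, or 43.8%. The share among the members was near that of the panel. Bok, Bad, Bid and Bcl2a1a did not show this order.

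Of the other BCL2 family genes, 5 were measured and are named here although the rule for named genes did not ask for them. Bcl2l2, which encodes the pro-survival protein BCL-W of neurons, was at 1029, 1316 and 1303 normalized counts in WT and at 744, 1022 and 1035 in SOD1-G85R. The groups overlapped by the narrow margin of 1029 against 1035, and the log2 fold change was -0.39 (SE 0.23, adjusted p = 0.456 by limma). The BH3-only genes Hrk and Bbc3, which encodes PUMA, had log2 fold changes of -0.40 and 0.29, and the mitophagy receptor genes Bnip3 and Bnip3l of -0.12 and 0.10. Their groups overlapped as well.

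Of 44 listed genes around the family in the mitochondrial pathway, 24 were measured and tested, with 14 higher and 10 lower, a median log2 fold change of 0.03 beside 0.15 for the panel, and 0 called by limma. At an unadjusted p of 0.05 there were 4 of 24, all higher, against 16.3% of the panel in either direction. Trp73, Birc5 and Birc3 were among them. The groups did not overlap in 6 higher and 2 lower genes of the list, against 17.0% and 9.97% of the panel.

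Trp73, a p53 relative that acts upstream of the family, was at 51.4, 78.4 and 59.9 normalized counts in WT and at 115, 93.2 and 108 in SOD1-G85R brain (log2 fold change 0.74, SE 0.23, adjusted p = 0.224 by limma). The SOD1-G85R samples lay above all WT samples, and replicate 2 did not stand apart as it did for Bcl2a1a. Trp73 passed limma with sample weights (adjusted p = 0.0442) and without SOD1-G85R replicate 2 with median centring (0.0465). Its log2 fold change was 0.83 without that sample and 0.13 after quantile normalization. With all 6 samples centred on their medians it was 0.54 (SE 0.37, adjusted p = 0.492 by limma).

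Birc3, a caspase-regulating inhibitor of apoptosis induced by NF-kB, was at 19.0, 27.2 and 25.6 normalized counts in WT and at 33.0, 131 and 49.7 in SOD1-G85R brain (log2 fold change 1.31, SE 0.51). Without SOD1-G85R replicate 2 it was 0.75, with median centring added it was 0.82 and passed limma (adjusted p = 0.0473), and after quantile normalization it was 0.36. Birc5, which encodes survivin and is also a gene of dividing cells, was at 21.4, 24.1 and 27.2 in WT and at 41.6, 76.4 and 35.5 in SOD1-G85R brain (log2 fold change 0.98, SE 0.32). The value for Birc5 was 0.65 without SOD1-G85R replicate 2, and its direction turned after quantile normalization, to -0.03. Top2a and Birc5 were the 2 measured genes of the 6 on the dividing cell list. Top2a was at 154, 161 and 212 in WT and at 594, 608 and 463 in SOD1-G85R.

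Cdkn1a, the p53-induced cell cycle inhibitor p21, was at 454, 763 and 697 normalized counts in WT and at 804, 1412 and 832 in SOD1-G85R brain (log2 fold change 0.66, SE 0.32). Mapk10, the neuronal JNK kinase, was at 2569, 2437 and 2759 in WT and at 1727, 2195 and 1922 in SOD1-G85R, a log2 fold change of -0.41 (SE 0.19). Neither group pair overlapped, and the adjusted p by limma was 0.390 for Cdkn1a and 0.355 for Mapk10. Without SOD1-G85R replicate 2 the log2 fold changes were 0.39 and -0.50.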

How the data were processed

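RNA of whole-brain homogenates was measured on a NanoString panel, per the labels' protocols. The authors deposited normalized signal, with 1 value for each gene in a sample. How it was scaled and how background was treated is not given in the sources used here. Values below 150 and above each sample's lowest value were whole multiples of 1 step, with 100% whole within 0.1 step, and the lowest value was shared by 10 to 59 genes and read as a floor. Dividing by the step gave implied totals of 689749 to 970297 counts in WT and 468717 to 1022646 in SOD1-G85R. No count model was used, because the deposited values were expected to be normalized.

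Values were taken as log2(value + 1), which understates changes of low genes, for the 712 genes above 20 in at least 3 of 6 samples. The test was limma 3.58.1 under R 4.3.3, two-sided, through lmFit and eBayes with genotype as the only term. The p-values were adjusted by Benjamini and Hochberg's method over all genes tested, with a threshold of 0.05, and the fit was tested on simulated data. Poisson intervals use the implied counts. Members, lists and tests were chosen with earlier results of these data known, and the motifs and gene pairs with the sequences and values in view. Named genes are all members and the 6 pathway genes of smallest unadjusted p. Of these 6, 1 is not reported here. Gene positions are from RefSeq GRCm38.p6, and promoters matched 9 of 10 members. The alternatives were other scalings, filters, pseudocounts, variance models, a replicate block and leaving out each sample. Same-numbered samples deviated from their group means with correlations of 0.23, 0.09 and 0.10 across genes, and the labels name no shared litter or batch, so the numbers were not taken as pairs. Figures were drawn with matplotlib 3.10.9.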

Additional observations from a re-analysis of the deposited data

How the results depend on the processing

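The members' results rest on 3 samples a group, and a log2 change under about 1 in Bcl2l1, Bak1 or Bcl2l11 could not be told from 0. Limma called 0 of 712 genes, or 116 at an unadjusted p of 0.05. It called 52 with sample weights, whose estimation stopped before convergence, and 0 to 10 with 1 sample left out, the 10 without SOD1-G85R replicate 2. It called 80 without SOD1-G85R replicate 2 with median centring, and 0 in the other settings. The median of pro-survival members was -0.21 to 0.41 with 1 sample left out, the highest without SOD1-G85R replicate 1, and the pro-death minus pro-survival difference was -0.10 to 0.44. The pathway median was -0.18 under median centring, -0.14 after quantile normalization, and -0.029 to 0.17 with 1 sample left out. Bcl2a1a kept its direction in every setting run, at 1.08 to 3.11, and passed only without SOD1-G85R replicate 2 with median centring, at 1.15. Trp73 passed there too and with sample weights, and Birc3 passed there. Signs of members near 0 turned. Centring on sample medians gave -0.14 for Bcl2l1, -0.051 for Bax, -0.022 for Bok and -0.13 for Bad. Quantile normalization gave -0.016 for Bcl2l1, -0.0099 for Bax and -0.0090 for Bok. Sample weights gave 0.015 for Bcl2. With 1 sample left out, values ran from -0.22 to 0.079 for Bcl2, from -0.21 to 0.41 for Bcl2l1, from -0.047 to 0.39 for Bax, from -0.032 to 0.38 for Bok and from -0.032 to 0.23 for Bad. Without SOD1-G85R replicate 2 and with median centring, added after the data were seen, Bcl2 was at 0.030 and Bcl2l1 at -0.10. The replicate block changed no call of a member: its smallest adjusted p among members was 0.219, for Bcl2l11 at a log2 fold change of 0.75, and it called 0 genes. At an unadjusted p of 0.05 it gave 162 genes against 116. The pairing check did not decide whether same-numbered samples were pairs. WT replicate 1 correlated best with SOD1-G85R replicate 1, at 0.23, the highest of all correlations. WT replicate 2 correlated best with SOD1-G85R replicate 3, at 0.19, and WT replicate 3 with SOD1-G85R replicate 1, at 0.13. The block lowered the SE of the members except Bcl2a1a and Bid, for Bcl2l1 from 0.40 to 0.14.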
